A study of Mus musculus with 10 samples.

Results

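The genes described here are the chemokines that act through the receptor CXCR2, the receptor itself, the granulocyte growth factor and its receptor, and products of neutrophils. They are 10 genes of the 37417 in the count table and were chosen by name, with earlier results of these data known. The ligands are Cxcl1, Cxcl2, Cxcl3 and Cxcl5, the receptor is Cxcr2, and the growth factor is Csf3, with its receptor Csf3r. The neutrophil products are S100a8, S100a9 and Retnlg. A filter on low counts passed 8 of the 10 genes, and Cxcl1 and Csf3 were below it. Bulk RNA-seq was done on 10 subcutaneous (s.c.) tumors of Panc02, a mouse pancreatic cancer cell line, grown in wild-type C57BL/6J mice of 12 weeks and taken 16 days after injection. The injected cells held a guide targeting Cda, which encodes cytidine deaminase, in 5 tumors (sgCda) and a nontargeting guide in the other 5 (sgNT). In both groups the cells had been transduced with a doxycycline-inducible Cas9 and a guide vector and then selected with drugs. The host was not edited, so in both groups host cells, neutrophils included, carried an intact Cda.

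Neutrophils leave the bone marrow and enter inflamed tissue and tumors along gradients of chemokines that carry a Glu-Leu-Arg motif, and CXCR2 is the main receptor on mouse neutrophils for these ligands. Granulocyte colony-stimulating factor, the product of Csf3, acts through the receptor encoded by Csf3r to drive the production and survival of neutrophils. S100A8 and S100A9 form calprotectin, the most abundant protein complex of the neutrophil cytosol, and monocytes make it too. In a bulk tumor, fewer cells of a type and less RNA per cell cannot be told apart.

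Libraries held 28051907 (sgCda 4) to 39484964 (sgNT 5) counts assigned to genes, so that 3 counts, taken as the floor, equal 0.0753 to 0.106 CPM (edgeR's normalised counts, relative to library sizes scaled by the trimmed mean of M values). The targeted gene Cda had 10.1 to 14.7 CPM in sgNT tumors and 7.47 to 12.5 CPM in sgCda tumors, groups that overlap, with a log2 fold change of -0.30 (SE 0.17, 95% CI -0.67 to 0.06, edgeR adjusted p = 0.9996). Mitochondrial transcripts took 3.47 to 3.81% of counts in 9 tumors and 5.82% in sgCda 4. The summed level of 5 skeletal muscle genes was 1781 CPM in sgCda 3, 440 CPM in sgNT 4 and 1.14 to 423 CPM in the other tumors.

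The label of a neutrophil gene group was first checked against defining markers. Ly6g, the surface protein by which mouse neutrophils are usually identified, had 17 counts over all 10 tumors and 0 to 7 in any of them. Of 24 other neutrophil genes 19 passed the filter, and the 5 that did not were Ly6g and the granule genes Camp, Ngp, Mpo and Elane. Cxcr1, the second receptor for some of these ligands, had 6 counts over all tumors. Cxcl5 and Csf3r are also made by cells other than neutrophils. The 10 genes are therefore called by their names below and are not read as a measure of neutrophil number.

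Levels were compared between genes per kilobase of exon of their coding transcripts. In sgNT tumors, Cxcl5 had 33.5 ± 7.49 CPM per kilobase (SD, n = 5), S100a8 30.7 ± 10.2, S100a9 29.8 ± 10.4 and Csf3r 11.9 ± 1.64. Lower levels per kilobase were found for Cxcl3 (7.33 ± 1.03), Cxcl2 (2.27 ± 0.286), Cxcr2 (2.17 ± 0.390), Retnlg (0.857 ± 0.280), Cxcl1 (0.256 ± 0.160) and Csf3, which had 0 counts in 4 of 5 sgNT tumors. The first 3 genes of this order do not differ beyond their spread: Cxcl5 exceeded S100a8 in 5 of 10 tumors, and S100a8 exceeded S100a9 in 8 of 10. Cxcl2 and Cxcr2 are likewise not separated, since Cxcl2 was the higher per kilobase in 2 of 10 tumors. Each of the other neighbours in the order was separated in all 10 tumors. Among the ligands, Cxcl5 thus had by far the highest level in these tumors and Cxcl1 the lowest.

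No member changed between sgCda and sgNT tumors at an adjusted p under 0.05. The same holds for the whole table, where edgeR's quasi-likelihood test called 0 of 15299 genes (0%). An unadjusted p under 0.05 was reached by 382 genes (2.50%), 236 higher and 146 lower in sgCda tumors, and by 0 of the 8 members tested. DESeq2 and limma-voom also called 0 genes, with 433 and 317 at an unadjusted p under 0.05. The log2 fold change was positive for 8 of 8 members tested, against 52.9% of all genes tested, and for Cxcl2, Cxcl3 and Retnlg the sign turned under other settings. In 0 of the 10 members were the groups free of overlap, and among all genes tested this was so for 0.601%.

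**Figure D1:**
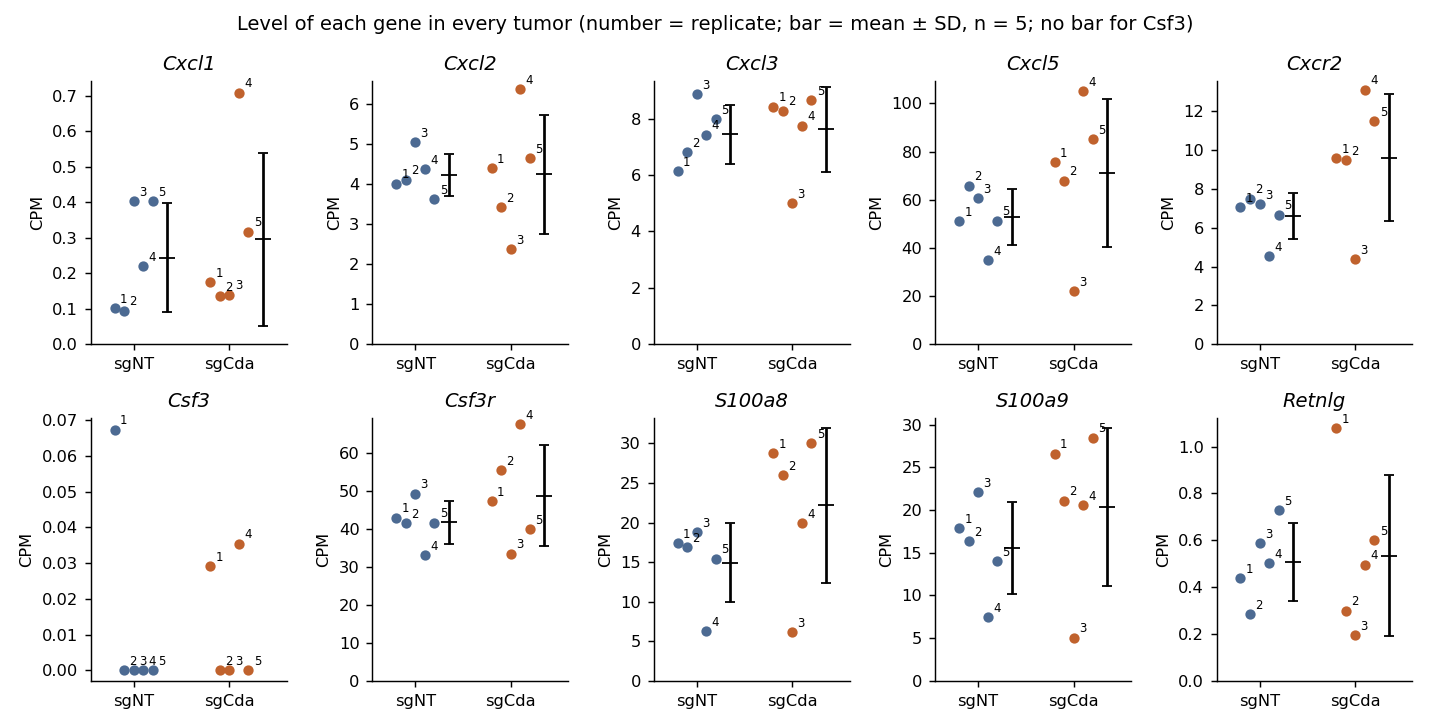
CPM (vertical axis, linear) of the 10 genes in each of 5 sgNT and 5 sgCda tumors, with the replicate number beside each point and the mean ± SD at the right of each group (none for Csf3, which is at 0 in 7 of 10 tumors). In Cxcl5, Cxcr2 and S100a8, 4 sgCda tumors lie above every sgNT tumor and sgCda 3 lies below them all.

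Cxcl1, Cxcl2, Cxcl3 and Cxcl5 lie close together on chromosome 5 of the mouse build GRCm38, all on the plus strand, and encode secreted ligands of CXCR2. Cxcl5 spans chr5:90759360-90761624, Cxcl3 chr5:90786103-90789600, Cxcl1 chr5:90891241-90893115 and Cxcl2 chr5:90903871-90905938. The coding transcripts of Cxcl2 and Cxcl3 share 61 windows of 50 bases, the read length, which is 3.28% of those of Cxcl2 and 6.31% of those of Cxcl3. Reads that lie wholly in the shared stretch have no unique place and may be missing from both counts.

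The promoters of Cxcl1, Cxcl2 and Cxcl3 are shown because these 3 ligands share a motif that few mouse promoters hold. RefSeq promoters (GRCm38.p6, 250 bases before to 50 after each start) were found for 8 of the 10 genes. Each window is given 5′ to 3′ on the plus strand, from base -120 to base -31 before the RefSeq start, with an NF-kB core motif in capitals. The positions are chr5:90891125-90891214 for Cxcl1, chr5:90903779-90903868 for Cxcl2 and chr5:90785981-90786070 for Cxcl3.
Cxcl1: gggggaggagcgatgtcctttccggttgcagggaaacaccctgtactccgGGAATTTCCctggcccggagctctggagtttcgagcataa
Cxcl2: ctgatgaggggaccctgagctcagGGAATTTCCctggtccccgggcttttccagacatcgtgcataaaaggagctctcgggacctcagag
Cxcl3: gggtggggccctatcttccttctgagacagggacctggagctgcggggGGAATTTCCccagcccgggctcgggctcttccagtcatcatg

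The motif GGAATTTCC was searched on both strands (GGAAATTCC on the other) and begins at base -70 in Cxcl1, -96 in Cxcl2 and -72 in Cxcl3. It is in 94 of 32851 promoters of the same length (0.286%). Placed side by side without gaps, the windows of Cxcl2 and Cxcl3 have the same base at 26 of 90 positions. A TATA-like motif, ATAAAAG, begins at base -34 in Cxcl1, -57 in Cxcl2 and -29 in Cxcl3, and is in 4.83% of promoters. The same TATA-like letters begin at base -29 of the S100a8 promoter. The letters GAGGAAG, the core bound by PU.1, a regulator of myeloid genes, are in the promoters of Csf3r and S100a8 and in 10.6% of all promoters. The C/EBP core TTGCNNAA, bound by regulators of granulocyte genes, is in those of S100a9 and Retnlg and in 9.56% of all. None of these matches overlapped another, and a match of letters is not a measured binding site.

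Cxcl1 was close to the floor. Counts were 3, 3, 13, 7 and 16 in sgNT 1 to 5 and 6, 5, 5, 20 and 10 in sgCda 1 to 5, or 0.0947 to 0.403 CPM and 0.136 to 0.708 CPM. The highest tumor was sgCda 4 and the groups overlap. Mean levels of 0.244 ± 0.153 CPM (sgNT) and 0.295 ± 0.242 CPM (sgCda; SD, n = 5 each) gave p = 0.786 in an exact two-sided permutation test, where 0.00794 is the smallest p that 5 against 5 tumors allow. With 3 to 20 counts per tumor, a difference within this spread was not detectable.

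Cxcl2 had 4.01, 4.10, 5.05, 4.36 and 3.62 CPM in sgNT 1 to 5 and 4.40, 3.42, 2.38, 6.37 and 4.65 CPM in sgCda 1 to 5. Both the lowest and the highest tumor were in the sgCda group, and the means of 4.23 and 4.24 CPM were nearly equal. Expressed as sgCda over sgNT, this is a log2 fold change of 0.0036 (SE 0.23, 95% CI -0.51 to 0.52, edgeR adjusted p = 0.9996), an interval that covers changes from -29.8% to 43.1%. Its sign turned under 11 of 18 other settings.

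Cxcl3 had 6.13, 6.82, 8.86, 7.44 and 7.99 CPM in sgNT 1 to 5 and 8.42, 8.29, 5.00, 7.75 and 8.66 CPM in sgCda 1 to 5. Of the sgCda tumors 4 lay within a narrow range of 7.75 to 8.66 CPM, and sgCda 3 was the lowest of all 10. In the fit the log2 fold change was 0.03 (SE 0.16; 95% CI from -0.33 to 0.40; edgeR adjusted p = 0.9996), the narrowest interval among the members tested, and its sign turned under 3 of 18 other settings.

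Cxcl5, the ligand with the highest level, had 51.1, 65.8, 60.7, 34.9 and 51.4 CPM in sgNT 1 to 5 and 75.6, 67.9, 21.9, 105 and 85.1 CPM in sgCda 1 to 5. The 4 sgCda tumors other than sgCda 3 were above every sgNT tumor, while sgCda 3 was the lowest of the 10 and sgNT 4 the lowest of its group. Mean levels were 52.8 ± 11.8 CPM and 71.1 ± 30.8 CPM (SD, n = 5 each). The log2 fold change of 0.43 (SE 0.33, 95% CI -0.29 to 1.15, edgeR adjusted p = 0.9996) did not exceed the spread between tumors.

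Cxcr2, the shared receptor, lies on the plus strand at chr1:74153989-74161246. It had 7.08, 7.51, 7.22, 4.55 and 6.68 CPM in sgNT 1 to 5 and 9.59, 9.48, 4.39, 13.1 and 11.5 CPM in sgCda 1 to 5. The pattern was that of its ligand Cxcl5: 4 sgCda tumors lay above every sgNT tumor, and sgCda 3 was the lowest of all 10. Mean levels were 6.61 ± 1.19 CPM and 9.62 ± 3.29 CPM (SD, n = 5 each), which is a log2 fold change of 0.54 (SE 0.25, 95% CI -0.02 to 1.10, edgeR unadjusted p = 0.0572, adjusted p = 0.9996). This was the smallest unadjusted p among the members. In the coding transcripts of Cxcr2, 6.68% of windows of 50 bases recur in other genes, so part of its reads may have had no unique place.

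Csf3, the gene for granulocyte colony-stimulating factor (chr11:98701263-98703629, plus strand), was at or below the floor in every tumor. It had 2 counts in sgNT 1, 1 count each in sgCda 1 and sgCda 4, and 0 in the other 7 tumors, so no fold is given. The exact two-sided permutation test gave p = 1. Growth factor made outside the tumor is not measured here.

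Its receptor gene Csf3r (chr4:126024550-126044440, plus strand) was well counted. It had 43.0, 41.5, 49.3, 33.1 and 41.7 CPM in sgNT 1 to 5 and 47.4, 55.5, 33.5, 67.6 and 39.9 CPM in sgCda 1 to 5. Only sgCda 2 and sgCda 4 were above every sgNT tumor, and the lowest tumors of both groups, sgNT 4 and sgCda 3, were again the same as for Cxcl5 and Cxcr2. In the fit its log2 fold change came to 0.22 (SE 0.17, 95% CI -0.16 to 0.61, edgeR adjusted p = 0.9996). In its coding transcripts 11.4% of windows of 50 bases recur in other genes, so part of its reads may have had no unique place.

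S100a8 and S100a9 lie near each other on chromosome 3, at chr3:90668978-90670035 on the plus strand and chr3:90692632-90695721 on the minus strand. S100a8 had 17.4, 16.9, 18.7, 6.28 and 15.4 CPM in sgNT 1 to 5 and 28.8, 26.0, 6.15, 19.9 and 30.0 CPM in sgCda 1 to 5. S100a9 had 17.9, 16.4, 22.1, 7.44 and 14.0 CPM in sgNT 1 to 5 and 26.6, 21.1, 5.03, 20.6 and 28.5 CPM in sgCda 1 to 5. In both genes sgNT 4 and sgCda 3 stood far below the other 8 tumors, and for S100a8 the other 4 sgCda tumors were above every sgNT tumor. For S100a9 only sgCda 1 and sgCda 5 were. The log2 fold change of S100a8 was 0.57 (SE 0.39, 95% CI -0.29 to 1.43, edgeR adjusted p = 0.9996). That of S100a9 was 0.39 (SE 0.40, 95% CI -0.49 to 1.26, edgeR adjusted p = 0.9996).

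Retnlg, a resistin-like gene expressed in mouse neutrophils (chr16:48872621-48874496, plus strand), had 7 to 37 counts per tumor. Levels were 0.438, 0.284, 0.589, 0.502 and 0.728 CPM in sgNT 1 to 5 and 1.08, 0.299, 0.196, 0.496 and 0.601 CPM in sgCda 1 to 5. The highest tumor was sgCda 1 and the lowest sgCda 3. The log2 fold change of 0.06 (SE 0.43, 95% CI -0.89 to 1.01, edgeR adjusted p = 0.9996) had the widest interval of the members tested, and its sign turned under 4 of 17 other settings.

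The fold changes depended on single tumors. Without sgCda 3, the log2 fold change was 0.66 for Cxcl5, 0.72 for Cxcr2, 0.81 for S100a8, 0.63 for S100a9 and 0.33 for Csf3r. The first 4 of these then had an unadjusted p under 0.05 (edgeR, 0.00372, 0.00109, 0.0114 and 0.0295), as had 747 of the 15377 genes tested in that fit, and each had an adjusted p of 0.819. Leaving out sgCda 4, the tumor with the highest mitochondrial share and the highest Cxcl5, Cxcr2 and Csf3r, gave 0.25 for Cxcl5, 0.40 for Cxcr2 and 0.08 for Csf3r. Without sgNT 4 the value was 0.37 for S100a8 and 0.20 for S100a9. Leaving out any 1 tumor, 0 genes of the table were called.

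**Figure D2:**
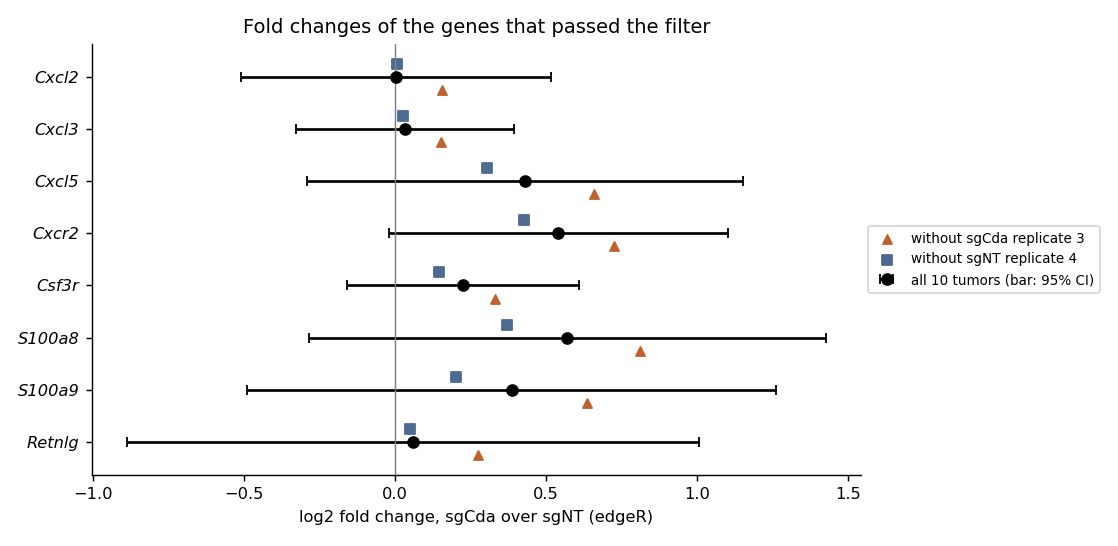
Log2 fold change of sgCda over sgNT (horizontal axis, edgeR) of the 8 members that passed the filter. Circles are all 10 tumors with 95% confidence intervals, triangles leave out sgCda 3 and squares leave out sgNT 4. Every interval includes 0, and for Cxcl5, Cxcr2, S100a8 and S100a9 the values without sgCda 3 lie further from 0.

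The tumors of a group differed more in these genes than in most. The within-group SD of log2 CPM was 0.83 for S100a9, 0.81 for S100a8 and 0.67 for both Cxcl5 and Retnlg, against a median of 0.21 over all genes tested. These values exceeded those of 95.9%, 95.5%, 92.7% and 92.5% of genes. Cxcr2 (0.48), Cxcl2 (0.39), Csf3r (0.31) and Cxcl3 (0.27) exceeded those of 83.9%, 76.8%, 69.1% and 63.0%. Counting error made up little of this for the well counted genes: the coefficient of variation of Cxcl5 in sgCda tumors was 43.3%, where counting alone gives 2.09%. For Retnlg the values in sgCda tumors were 64.4% and 23.9%.

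In all 8 members tested the sgCda tumors deviated more from their group median than the sgNT tumors. The difference held for none of them in an exact two-sided permutation test over the 252 assignments of tumors, with the smallest p 0.190 for Cxcl2 (0.783 after adjustment over 8 tests). The mean absolute deviation of log2 CPM for Cxcl2 was 0.12 in sgNT and 0.37 in sgCda tumors, and for Cxcl5 0.23 and 0.52.

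Members varied together from tumor to tumor. All 28 pairs of the 8 members had a positive Pearson r of log2 CPM over the 10 tumors, and 9 had an adjusted p under 0.05 (permutation test, 100000 resamples, adjusted over the 28 pairs). How many passed on fewer tumors depended on which were left out. Leaving out the 2 tumors farthest from the median of the first gene of each pair, a choice that differs between first genes, 4 pairs passed. Leaving sgNT 4 and sgCda 3 out of every pair, an alternative chosen after seeing the data, 2 pairs passed, Cxcl5 with Cxcr2 and S100a8 with S100a9, and 27 of 28 had a positive r.

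Apart from S100a8 with S100a9, the closest pair was the ligand and its receptor. For both of these genes sgNT 4 and sgCda 3 were again the lowest tumors. For Cxcl5 and Cxcr2, r was 0.95 (permutation p = 1e-05, the smallest these resamples can give, adjusted p = 0.00028) and Spearman's rho 0.99 (permutation p = 1e-05). Without sgNT 4 and sgCda 3, r was 0.96 (permutation p = 4.96e-05, adjusted p = 0.00139). With each group centred on its own mean, r was 0.99.

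In S100a8 and S100a9 the tumors fell into 2 sets, sgNT 4 and sgCda 3 at low levels and the other 8 at high levels, and no r over all tumors is given. Over the other 8 tumors r was 0.90 between them (permutation p = 0.00188, adjusted p = 0.0264). Over the same 8 tumors Cxcr2 had r = 0.67 with S100a8 (permutation p = 0.0787) and 0.65 with S100a9 (permutation p = 0.0863), and Cxcl5 had r = 0.56 with S100a8 (permutation p = 0.149) and 0.60 with S100a9 (permutation p = 0.112), each with an adjusted p of 0.35. For Cxcr2 these 2 relations passed when sgCda 3 and sgCda 4 were left out instead, a choice that keeps sgNT 4. With 8 tumors, r of this size is not told apart from 0, and it is not shown to be 0 either. Cxcl2 and Cxcl5 had r = 0.71 without sgNT 4 and sgCda 3 (permutation p = 0.0471, adjusted p = 0.35) and r = 0.12 without sgCda 3 and sgCda 4 (permutation p = 0.778).

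**Figure D3:**
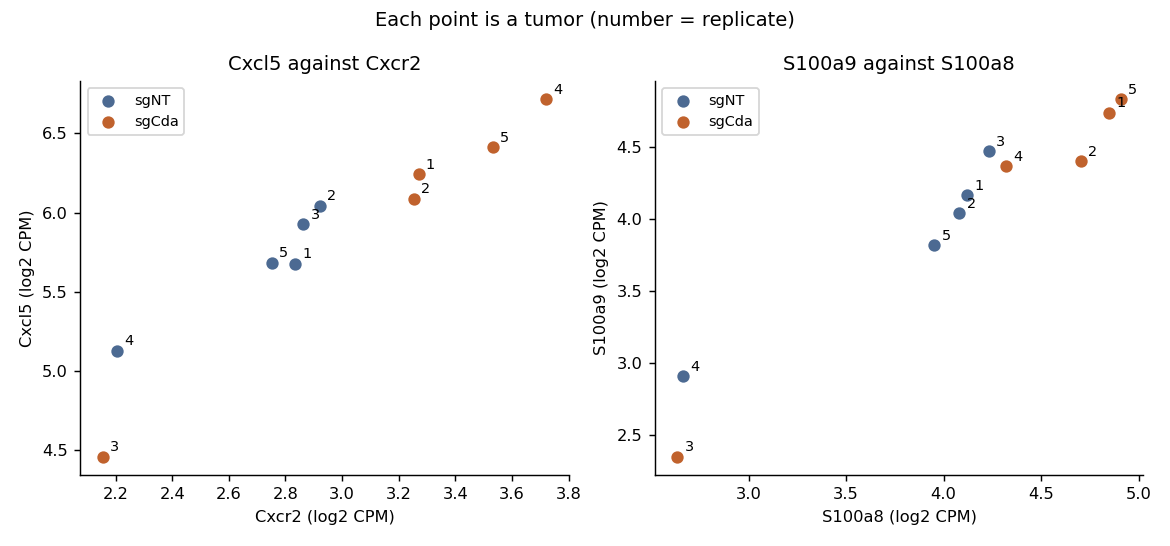
Log2 CPM of Cxcl5 against Cxcr2 (left) and of S100a9 against S100a8 (right), 1 point per tumor with its replicate number, blue for sgNT and orange for sgCda. Cxcl5 and Cxcr2 rise together, with sgNT 4 and sgCda 3 the lowest, and in S100a8 and S100a9 these tumors lie apart from the other 8.

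The genes whose levels followed Cxcl5, Cxcr2, Csf3r and S100a9 most closely were looked for among 13267 genes, by Pearson r of log2 CPM centred on each group, as a description over 10 tumors. For Cxcl5 they were 5031434C07Rik (0.99), Cxcr2 (0.99), Cp (0.98), Myh13 (0.98) and Sox21 (0.98). Cp encodes the copper-binding plasma protein ceruloplasmin, Myh13 a myosin heavy chain and Sox21 a transcription factor known from the nervous system. For Cxcr2 they were Cxcl5 (0.99), Rbbp9 (0.99), Hexim2 (0.98), Sox21 (0.98) and 5031434C07Rik (0.98). The only one of these genes that is also in a list of neutrophil genes is Cxcr2. High values of r were common: 2.19% of all genes compared had r above 0.9 with Cxcl5 and 2.39% with Cxcr2. Without sgNT 4 and sgCda 3, the centred r with Cxcl5 was 0.98 for 5031434C07Rik, 0.95 for Myh13 and 0.91 for Cxcr2 (0.96 without centring). It was 0.84 for Cp and 0.81 for Sox21.

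The genes closest to Csf3r were Zscan29 (0.98), Penk (0.96), Sp110 (0.96), Mvp (0.96) and Polr3gl (0.96), and none of the other members was among them. Without sgNT 4 and sgCda 3 these had r of 0.91 to 0.97 with Csf3r. For S100a9, whose tumors fell into 2 sets, r is given only over the 8 tumors of the higher set. Centred on each group, it was 0.80 with S100a8 (0.90 without centring), 0.58 with Tmem19, 0.49 with Azin2 and 0.43 with Lancl1. These genes were among the 5 closest when all 10 tumors were used.

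Whether other neutrophil genes followed S100a9 depended on which tumors were used. Of 19 tested, with all 10 tumors, 0 were called and 0 had an unadjusted p under 0.05 (edgeR), with 10 positive and 9 negative log2 fold changes and a median of 0.03, beside 0.01 for all genes. The smallest p in each direction belonged to Lcn2, an iron-scavenging granule protein, at 0.67 (SE 0.39, edgeR adjusted p = 0.9996), and to Mmp8, the neutrophil collagenase, at -0.69 (SE 0.34, edgeR adjusted p = 0.9996). Without sgCda 3, 7 of the 19 had an unadjusted p under 0.05, beside 747 of the 15377 genes tested, and 0 were called. The list then moved both ways. In the other sgCda tumors Cd177 had 0.708 to 0.875 CPM, above the 0.345 to 0.628 CPM of sgNT tumors. Mmp8 had 0.389 to 0.759 CPM there, below the 0.821 to 1.53 CPM of sgNT tumors. Mean levels were 0.819 ± 0.147 CPM (sgNT) and 1.31 ± 0.699 CPM (sgCda) for Lcn2, and 1.08 ± 0.290 CPM and 0.667 ± 0.360 CPM for Mmp8 (SD, n = 5 each).

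Of these 19 genes 6 had r above 0.5 with S100a9 over all 10 tumors, and 6 had r below -0.5, against 23.6% and 19.4% of all genes compared. These values rest on sgNT 4 and sgCda 3. Without both, r was above 0.5 for 6 of the 19 genes and below -0.5 for 0 of the 19, against 11.7% and 11.2% of all genes. Asprv1 was the only gene above 0.5 both times. Cd177, a neutrophil surface protein, went from 0.92 to -0.13, Mmp9, a gelatinase of neutrophils and macrophages, from 0.86 to -0.43, and the formyl peptide receptor gene Fpr1 from -0.93 to -0.26. Clec4e, a lectin receptor of myeloid cells, went from -0.61 to 0.79. In sgCda 3, where S100a8 and S100a9 were lowest, Fpr1 had 6.74 CPM, the highest of all 10 tumors, against 0.664 to 3.08 CPM in the others. Of the 19 genes, 7 were lowest and 4 highest in sgCda 3.

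**Figure D4:**
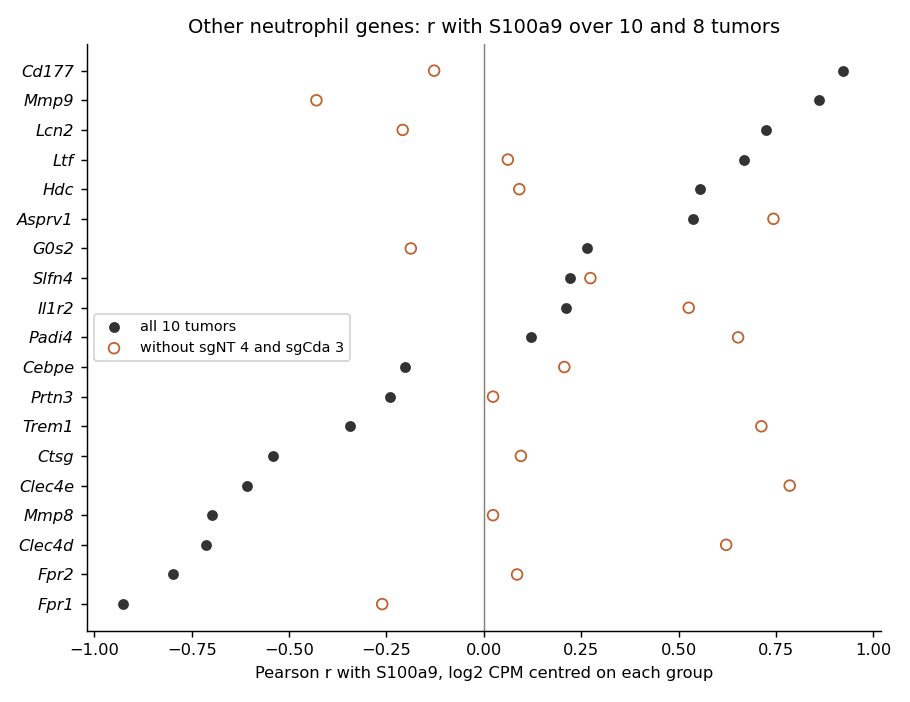
Pearson r with S100a9 (horizontal axis, log2 CPM centred on each group) of 19 other neutrophil genes over all 10 tumors (filled) and without sgNT 4 and sgCda 3 (open). Over 10 tumors the values run from Cd177 at 0.92 down to Fpr1 at -0.93, and without the 2 tumors from Clec4e at 0.79 down to Mmp9 at -0.43, in another order.

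Further chemokine and chemokine receptor genes were Ppbp, Pf4, Cxcl15, Cxcr1, Ackr1, Cxcl12 and Cxcr4, not all of which act through CXCR2. Of these 7 genes 6 passed the filter, 0 were called and 0 had an unadjusted p under 0.05 (edgeR). Their median log2 fold change was -0.07. The smallest p in each direction belonged to Cxcl15, a further CXC chemokine (0.63, SE 0.54, edgeR adjusted p = 0.9996), and Ackr1, a receptor that binds chemokines without signalling through G proteins (-0.34, SE 0.62, edgeR adjusted p = 0.9996).

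Of 12 signals that act on neutrophil chemokines and growth, among them interleukins, Tnf, Csf2 and NF-kB components, 11 passed the filter. None was called, 1 had an unadjusted p under 0.05 (edgeR), and the median log2 fold change was 0.0008. That gene was Il1b, the gene for interleukin 1 beta, with 32.0, 19.9, 28.6, 22.5 and 23.8 CPM in sgNT 1 to 5 and 20.9, 16.5, 13.1, 24.0 and 19.1 CPM in sgCda 1 to 5. In 5 of 5 sgCda tumors it was below the sgNT mean of 25.4 CPM, although the groups overlap. The fitted log2 fold change was -0.44 (SE 0.17, 95% CI -0.82 to -0.06, edgeR unadjusted p = 0.0264, adjusted p = 0.9996). This p was at or above 0.05 without sgNT 1, sgNT 3, sgCda 2 or sgCda 3, each left out alone. The smallest p in the other direction belonged to Nfkbia, an inhibitor of NF-kB.

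The 2 tumors low in S100a8 and S100a9 were also compared with the rest in the gene lists and cell type markers. The 8 genes of the neutrophil list, 5 of which are members, summed to 53.5 CPM in sgNT 4 and 50.9 CPM in sgCda 3 and to 80.7 to 123 CPM in the other 8 tumors, with Ly6g at 0 to 7 counts. This list holds S100a8 and S100a9, by which the 2 tumors were chosen, so its low sum is not separate evidence. Of its genes that are not members, Cd177 was low in sgNT 4 and sgCda 3 (0.345 and 0.335 CPM). Mmp8 was not low there (1.19 and 1.26 CPM). The summed level of the 24 other neutrophil genes was not low in these 2 tumors. It was 138 CPM in sgNT 4, 134 CPM in sgCda 3, 133 CPM in sgNT 3 and 79.9 to 121 CPM in the other tumors. A few genes carried much of this sum: in sgCda 3, Clec4d had 31.8 CPM, Fpr2 26.5 CPM and Clec4e 18.4 CPM. Gene by gene the list was mixed, and of its 19 genes tested 7 were lowest and 4 highest in sgCda 3. The skeletal muscle list, with 5 of 5 genes tested, was highest in sgCda 3 and next highest in sgNT 4, where its 440 CPM was close to the 423 CPM of sgCda 1. The endothelial list summed to 105 CPM in sgNT 4, 97.8 CPM in sgCda 3 and 54.8 to 99.6 CPM elsewhere. The platelet list summed to 20.5 CPM in sgNT 4, 21.5 CPM in sgCda 3 and 14.6 to 28.7 CPM elsewhere. The T cell list (6 of 6 tested) summed to 556 CPM in sgCda 3 and 159 to 374 CPM elsewhere, and the monocyte list (4 of 4 tested) to 392 CPM in sgCda 3 and 235 to 336 CPM elsewhere. The keratinocyte list summed to 27.97 CPM in sgNT 4 and 5.70 to 9.27 CPM elsewhere, with 2 of 8 genes tested and Krt5 and Krt14 below the filter. The part of these cells in the levels of the members was not tested. In each of the cell type lists (neutrophil, monocyte, macrophage, T cell, mast cell and eosinophil, platelet, red blood cell, keratinocyte, epithelial, skeletal muscle, fibroblast, endothelial) 0 genes were called by edgeR, and 1 gene of them all, Epcam in the epithelial list, had an unadjusted p under 0.05 (log2 fold change 0.78, SE 0.32, adjusted p = 0.9996). Without sgCda 3, 5 of the 8 genes of the neutrophil list had an unadjusted p under 0.05 (edgeR), beside 747 of the 15377 genes tested in that fit. They include the members Cxcr2, S100a8 and S100a9 given above, which were lowest in sgCda 3, so this count is not separate evidence. The count of the epithelial list went to 0 under 6 of 18 alternatives.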

How the data were processed

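Libraries were made from polyadenylated RNA of whole tumors with a stranded kit, and reads were aligned to mm10 and counted per gene with HTSeq (version given as 07.2 in the submitters' processing notes, which also name FastQC 0.11.5 and Bowtie2). The strand setting of the counting is not given in the sources used here. The values are gene counts as the authors deposited them, not normalized, 1 column per tumor. The 5 summary lines (reads assigned to no gene and the like) were dropped. Reads in no feature were 18.4% of the sum of assigned, no-feature and ambiguous reads in sgCda 4 and 10.3 to 14.9% in the other tumors.

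Genes were filtered with filterByExpr (minimum count 10, minimum total 15), scaled by the trimmed mean of M values and compared between 5 sgCda and 5 sgNT tumors by edgeR's quasi-likelihood test (edgeR 4.0.16, R 4.3.3), without covariates and with Benjamini-Hochberg adjustment over 15299 genes. Members below the filter were compared by exact permutation of mean CPM. Log2 CPM used a prior count of 2. Alternatives were DESeq2 size factors and Wald test (DESeq2 1.42.0), limma-voom (limma 3.58.1), library totals, 2 other filters, removal of the 20 genes of highest count from the scaling, the replicate number as a block, and leaving out each tumor. The tests were tested on simulated counts. Gene positions and exon lengths came from GENCODE vM21. The members and gene lists were chosen with earlier results of these data known. For likeness, the 5 genes of highest r with Cxcl5, Cxcr2, Csf3r and S100a9 are named, except for a gene that is not reported here. Genes named from a list are those with the smallest p in each direction, and for the other neutrophil genes and the neutrophil markers the further genes were chosen after their values were seen. Tumors came from separate mice as far as the labels show, and the p-values measure the spread between them.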

Additional observations from a re-analysis of the deposited data

Results flagged for a closer look

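In 48 groups of 5 values (log2 CPM of the members and log2 of the summed CPM of each list, per group), 9 had a tumor that lay apart from the other 4 by Dixon's test. Chance alone gives about 1 in 20, or 2.4 of 48. In sgCda 3, log2 CPM was low for Cxcl3 (2.34), Cxcl5 (4.46), S100a8 (2.63) and S100a9 (2.35). In sgNT 4, log2 CPM was low for Cxcr2 (2.21) and S100a8 (2.66). The log2 of the summed CPM was low for the neutrophil list in sgCda 3 (5.67), high for the keratinocyte list in sgNT 4 (4.81) and high for the T cell list in sgNT 3 (8.55). These values share tumors and genes and are not independent of each other.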

How the results depend on the processing

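The log2 fold changes of Cxcl5, Cxcr2, Csf3r, S100a8 and S100a9 kept their positive sign under all 18 alternatives, and for each member the adjusted p stayed above 0.05 in each of them. Leaving out each tumor in turn gave 0.25 to 0.66 for Cxcl5, 0.40 to 0.72 for Cxcr2, 0.08 to 0.33 for Csf3r, 0.37 to 0.81 for S100a8 and 0.20 to 0.63 for S100a9, with the highest value of each without sgCda 3. The sign turned for 3 genes near 0. Cxcl2 was at -0.020 with a filter of 1 count in any tumor, -0.00044 with a filter of 10 counts in every tumor, -0.0012 with DESeq2's Wald test and -0.079 with limma-voom, and -0.19 to 0.15 when each tumor was left out. Cxcl3 was at -0.032 to 0.15 and Retnlg at -0.37 to 0.27 when each tumor was left out, and Retnlg was at -0.12 with limma-voom. The cause was not tested. Cxcr2 had an unadjusted p of 0.0402 with DESeq2's Wald test (adjusted p = 0.9999). The number of genes at an unadjusted p under 0.05 was 830 with a filter of 1 count in any tumor, which tested 26302 genes, and 280 to 747 when each tumor was left out.

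The replicate number as a block called 0 genes, with 325 at an unadjusted p under 0.05, and gave log2 fold changes of -0.052 for Cxcl2 and -0.061 for Retnlg. The deviations of tumors with the same number had correlations of -0.03, -0.02, 0.33, -0.43 and 0.34 for numbers 1 to 5. For numbers 3 and 5 this was above the highest of that sgNT tumor with an sgCda tumor of another number (0.27 and 0.16). For numbers 1, 2 and 4 it was below that highest value (0.27, 0.55 and 0.69). Since this was not so for all numbers, they were not taken to pair tumors.

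Of the pairs of members, 4 in place of 9 passed without the 2 tumors farthest from the median, where r turned to -0.24 for Cxcl2 with Csf3r and -0.015 for Cxcl2 with S100a8, and 2 passed without both sgNT 4 and sgCda 3, where r turned to -0.13 for Csf3r with Retnlg. With Spearman's rho 7 pairs passed, and with groups centred 10. Depth limits Cxcl1 and Csf3, at 3 to 20 and 0 to 2 counts per tumor, and Retnlg, at 7 to 37.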
